A study of Nicotiana plumbaginifolia and Nicotiana benthamiana and Nicotiana rustica with 81 samples.

Results

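Floral nectaries of Nicotiana glauca after secretion were compared with nectaries of the same species at stage 12, the mature flower at anthesis. N. glauca (PI-282690; TW-54) is a wild tobacco species, grown here in pots under 16 h days and 8 h nights, and its nectaries were dissected by hand before mRNA was sequenced. The post secretory group, which the growth protocol calls post-fertilization, and the stage 12 group had 3 libraries each, of 81 libraries from 6 species. The table sets reads against 38230 transcripts named after N. tabacum, and 19457 of them were described here, those with an authors' mean of 50 or more in either group. The labels give no treatment or transgene for either group, and do not state plant age at each stage or whether the 3 libraries came from separate plants. The p-values below therefore measure the spread between these libraries, which may be technical.

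A nectary is a gland, here at the base of the ovary, that makes and releases nectar around the opening of the flower. In tobacco relatives the gland stores starch before anthesis, turns it into sugars that leave through SWEET9-type sucrose exporters and are split by a cell wall invertase, accumulates beta-carotene, and secretes nectarins, proteins that act on reactive oxygen in nectar. The transcription factor MYB305 drives much of this programme, and CRABS CLAW, a YABBY protein, is needed for nectaries to form.

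Every value is an authors' mean of normalized counts with its SD over 3 libraries (n = 3 for each group), since values per library are not analysed here. Because 3 values cannot lie more than 1.155 SD from their mean, the mean and SD still bound where each library could be. Groups whose bounds do not meet, after an allowance for rounding, cannot overlap in any library, and are called separated below. With 3 libraries a side an exact permutation test of a single transcript could not go below p = 0.1, so calls rest on limma's moderated test across all 19457 transcripts. A transcript was called where its Benjamini-Hochberg adjusted p was under 0.05 and its change was 2-fold or more, on the scale of log2(mean + 1), which understates the change of low transcripts. Reads of near-identical tobacco copies could be split between entries, so the values of single members of a family are uncertain. Normalized counts grow with transcript length, so levels are compared between stages and not between genes.

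The libraries of the stage 12 group varied more than those of the other N. glauca groups. The median SD over mean was 0.105 in post secretory nectaries and 0.186 in stage 12 nectaries, against 0.051 at stage 9 and 0.058 at stage 6. At stage 12 the SD exceeded the mean in 375 of 17377 transcripts, and in 44 of 18189 post secretory transcripts. SD over mean cannot exceed 1.732 with 3 libraries, a value reached when a single library carries all the signal, and 70 transcripts lay above 1.5 at stage 12. Small heat shock proteins, chaperones induced by stress, stood out among these after the values were seen. Of 30 with a mean of 50 or more at stage 12, 17 (56.7%) had an SD above their mean, against 2.16% of all transcripts, and their median ratio was 1.093. Among the 10 above 1.5, 9 were called lower after secretion and none was separated. A ratio above 1.5 means that nearly all of the stage 12 mean came from 1 library.

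**Figure D1:**
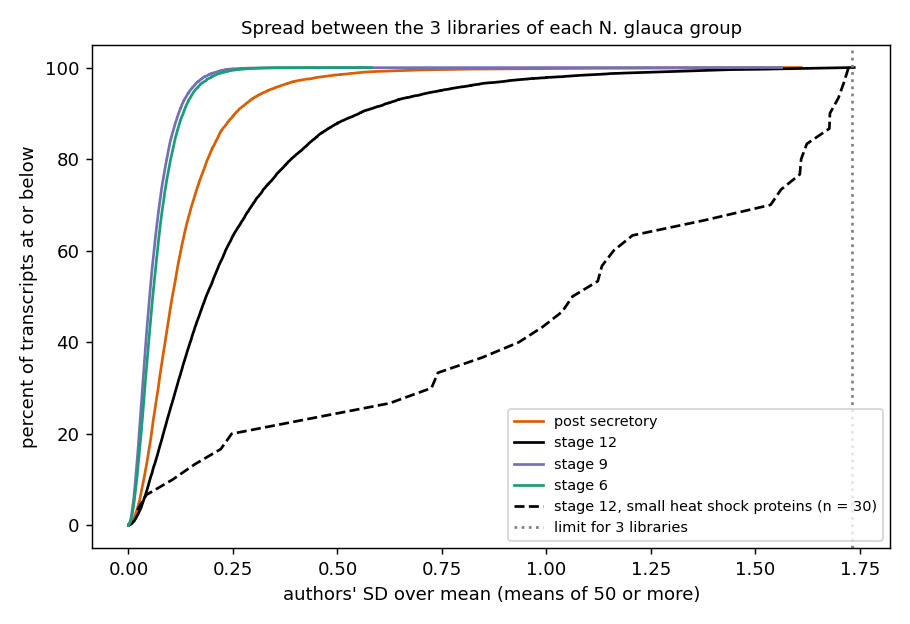
The curves give the percent of transcripts (y axis) at or below each ratio of the authors' SD to the mean (x axis) for the post secretory, stage 12, stage 9 and stage 6 groups, for means of 50 or more, with small heat shock proteins at stage 12 dashed. The post secretory curve (median 0.105) lies left of the stage 12 curve (median 0.186), and the dashed curve (median 1.093) reaches the dotted limit for 3 libraries.

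Of the 19457 transcripts, 6051 (31.1%) were called, 3065 (15.8%) higher and 2986 (15.3%) lower in post secretory nectaries than in stage 12 nectaries. Separated transcripts with a 2-fold change numbered 6016 (30.9%), and 5763 were both called and separated, 3009 higher and 2754 lower. The other 288 called transcripts could overlap between the groups. The authors' deposited table marks 7610 of the tested transcripts (39.1%) as differentially expressed between these stages, including 5285 of the 6051 called here. The median change over all tested transcripts was -0.13 on the log2 scale. The means of all transcripts in the table summed to 8600354 in post secretory nectaries and to 10859122 at stage 12. A single entry, a cytochrome P450-like cDNA (D64052.1), held 5.12% of the stage 12 sum. Its mean was 86920 ± 12860 in post secretory nectaries and 555780 ± 165489 at stage 12 (log2 change -2.68, limma adjusted p = 0.111), separated but not called.

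**Figure D2:**
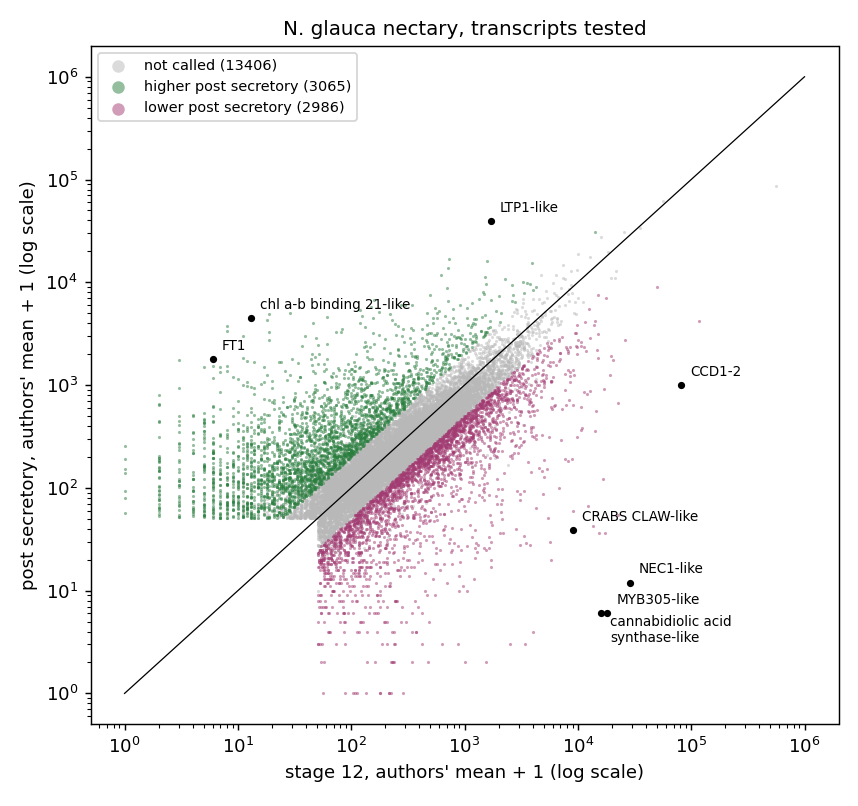
Each point is a tested transcript, with its post secretory mean plus 1 on the y axis and its stage 12 mean plus 1 on the x axis, both on log scales. The 3065 transcripts called higher lie above the diagonal and the 2986 called lower lie below it, with MYB305-like, NEC1-like and cannabidiolic acid synthase-like transcripts farthest below.

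The main MYB305 and CRABS CLAW transcripts were nearly gone after secretion. The MYB305-like transcript XM_016582512.1, the largest fall of all, had a mean of 5 ± 0 in post secretory nectaries and 18242 ± 8271 at stage 12 (log2 change -11.57, adjusted p = 1.714e-05). No post secretory library could exceed 6 and no stage 12 library could lie under 8690. Its copy XM_016644811.1 averaged 2 ± 1 after secretion and 3410 ± 1088 at stage 12. The CRABS CLAW-like transcript XM_016610040.1 had 38 ± 4 in post secretory nectaries and 9038 ± 3531 at stage 12 (log2 change -7.86, adjusted p = 2.577e-05), with every post secretory library at or under 44 and every stage 12 library at or above 4960. In tissue collected whole, fewer nectary cells and less RNA of this kind per cell cannot be told apart. Of 14 nectary regulators tested (CRABS CLAW, MYB305, YABBY, BLADE-ON-PETIOLE and TGA-type genes), 5 fell and 3 rose (57.1% called, beside 31.1% of all transcripts). The falls include the YABBY 5-like transcript XM_016602477.1, with 584 ± 73 in post secretory nectaries and 5939 ± 2179 at stage 12.

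Values of the same markers in the other species profiles are set beside these. For the MYB305-like copy XM_016644811.1, the post secretory mean was 10 and the stage 12 mean 5573 in N. benthamiana. In N. rustica the means were 43 after secretion and 3039 at stage 12. They were 18 after secretion and 2029 at stage 12 in the profile deposited identically under N. bonariensis and N. clevelandii, called the joint profile here. In N. plumbaginifolia they were 555 after secretion and 2209 at stage 12. The copy XM_016582512.1 was low at stage 12 in N. rustica (21) and the joint profile (94), and CRABS CLAW-like XM_016610040.1 was low in N. plumbaginifolia, with 41 after secretion and 80 at stage 12. These markers are not limited to the gland: in N. plumbaginifolia XM_016582512.1 averaged 1343 in ovary and 1041 in sepal, and XM_016610040.1 averaged 156 in ovary.

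MADS-box factors moved in both directions, 13 higher and 6 lower of 36 (52.8% called, beside 31.1% of all transcripts). AGAMOUS-like transcripts, named for a factor that specifies stamens and carpels, split. XM_016580095.1 fell to 1089 ± 41 in post secretory nectaries, against 4978 ± 1265 at stage 12, while XM_016631079.1 rose to 828 ± 11, against 293 ± 14 at stage 12. The AGL12-like transcript XM_016659843.1 rose most within the group, with 347 ± 41 after secretion and 33 ± 13 at stage 12 (log2 change 3.36). The florigen-type transcript FT1 (JQ686942.1), known in tobacco as a repressor of flowering, had 1783 ± 148 in post secretory nectaries and 5 ± 2 at stage 12 (log2 change 8.22, adjusted p = 2.325e-05). Every post secretory library lay at or above 1611 and every stage 12 library at or under 8.

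**Figure D3:**
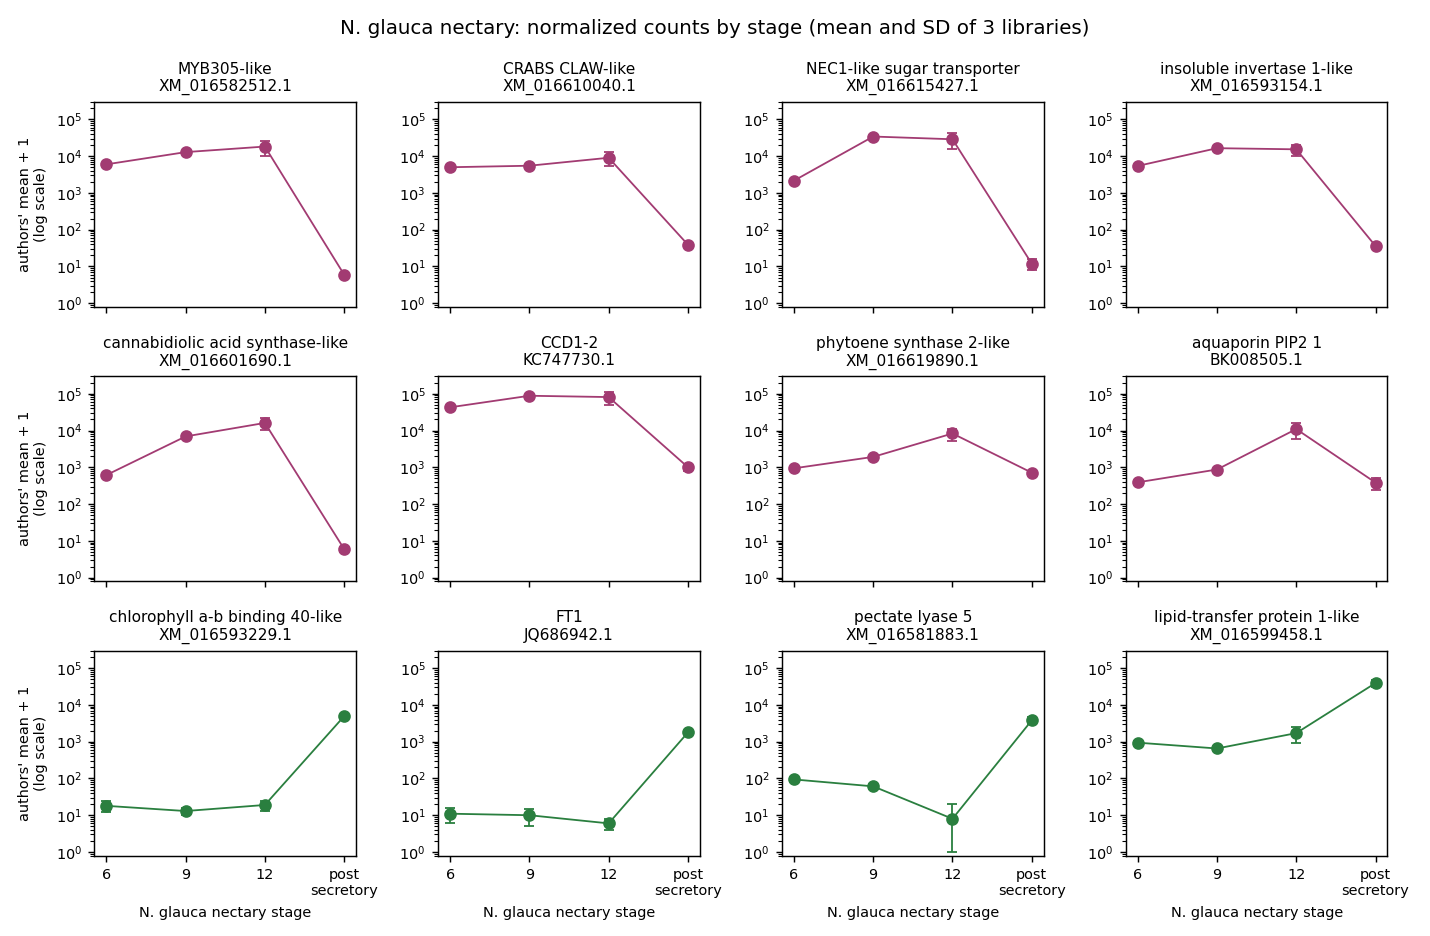
Authors' means plus 1 (log y axis) with SDs of 3 libraries are plotted for 12 N. glauca transcripts at stages 6, 9 and 12 and post secretory (x axis); error bars that would pass 0 end at the axis value of 1. The 8 transcripts in purple, among them MYB305-like (5 after secretion, 18242 at stage 12), were called lower after secretion, and the 4 in green, among them FT1 (1783 after secretion, 5 at stage 12), were called higher.

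Sugar export and sucrose turnover changed in 41 of 62 tested members (66.1%, beside 31.1% of all transcripts), 16 higher and 25 lower. The NEC1-like bidirectional sugar transporter XM_016615427.1, the SWEET9-type exporter of this gland, had 11 ± 4 in post secretory nectaries and 28771 ± 12673 at stage 12 (log2 change -11.23, adjusted p = 2.325e-05). The groups did not overlap, since post secretory libraries reached at most 17 and stage 12 libraries at least 14136. The cell wall invertase XM_016593154.1, which splits exported sucrose, averaged 35 ± 1 after secretion and 15334 ± 5274 at stage 12 (log2 change -8.74). Of 14 invertases, 10 fell and 1 rose (78.6% called). The falls include a further apoplastic invertase (KF308284.1) with 24 ± 6 after secretion and 931 ± 338 at stage 12. When the groups were rescaled to the same median ratio, 7 invertases fell and 1 rose. Of 17 sucrose synthases, phosphate synthases and phosphatases, 9 fell and 3 rose. Sucrose synthase XM_016604254.1 fell to 2741 ± 563 in post secretory nectaries, against 25832 ± 9920 at stage 12.

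Sugar carriers as a family moved both ways. Of 31 SWEET, sucrose and hexose transporters tested, NEC1-like included, 12 rose, 6 fell and 13 were not called. The SWEET7-like transcript XM_016616465.1 had 3189 ± 1113 in post secretory nectaries and 485 ± 425 at stage 12 (log2 change 2.72, adjusted p = 0.0112). A sucrose transport protein of the phloem loading family (XM_016599244.1) had 1454 ± 508 after secretion and 115 ± 19 at stage 12 (log2 change 3.65). The SWEET1-like family split between copies: XM_016651885.1 fell to 96 ± 13, against 1992 ± 1179 at stage 12, whereas XM_016641144.1 rose to 156 ± 87, against 1 ± 1 at stage 12.

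Starch genes moved in both directions. Of 17 members of starch synthesis, 4 rose and 3 fell (41.2% called), and of 35 members of starch breakdown, 5 rose and 2 fell (20.0% called), beside 31.1% of all transcripts. The small subunit of ADP-glucose pyrophosphorylase (XM_016594199.1), which commits glucose to starch, had 2889 ± 234 in post secretory nectaries and 422 ± 359 at stage 12 (log2 change 2.77, adjusted p = 0.00723). Granule-bound starch synthase 1 (XM_016577486.1) rose to 3213 ± 706, against 576 ± 188 at stage 12. Alpha-glucan phosphorylase XM_016635072.1, which releases sugar phosphate from starch, rose too, with 3198 ± 258 after secretion and 510 ± 238 at stage 12. Beta-amylase 1 (XM_016660106.1) fell to 492 ± 28, against 2812 ± 200 at stage 12, and beta-amylase 3 (XM_016591116.1) to 68 ± 17, against 708 ± 229. The 3 falls of starch synthesis were all glucose-6-phosphate translocators, which bring sugar phosphate into plastids. The largest was XM_016598669.1, with 60 ± 9 after secretion and 868 ± 527 at stage 12. A further translocator transcript was not called and had a higher mean after secretion, 2057 ± 161, than at stage 12, 717 ± 1085.

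Members of the nectarin and redox list moved both ways: of 16 tested, 5 rose and 3 fell (50.0% called, beside 31.1% of all transcripts). Their summed means fell, to 5848 in post secretory nectaries, against 43671 at stage 12. Nectarin-1 (XM_016580669.1), a superoxide dismutase that produces hydrogen peroxide in nectar, had 154 ± 26 in post secretory nectaries and 4586 ± 2466 at stage 12 (log2 change -4.89, adjusted p = 0.00025). A berberine bridge-type oxidase annotated as cannabidiolic acid synthase-like (XM_016601690.1), an annotation borrowed from cannabis, had 5 ± 1 after secretion and 16092 ± 5493 at stage 12 (log2 change -11.39). The reticuline oxidase-like transcript XM_016623365.1 fell to 1760 ± 291, against 20279 ± 12072 at stage 12. Further, 3 of 5 respiratory burst oxidases, enzymes of the plasma membrane that make superoxide, rose, among them oxidase E-like XM_016597125.1 with 83 ± 14 after secretion and 2 ± 2 at stage 12. The nectarin-1-like transcript XM_016601497.1 rose, with 120 ± 26 after secretion and 14 ± 3 at stage 12, and XM_016657282.1 was not called, with 707 ± 41 after secretion and 364 ± 141 at stage 12. No transcript described as nectarin-3 was tested.

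Carotenoid synthesis fell as a group. Of 34 members tested, 25 fell and 2 rose (79.4% called, beside 31.1% of all transcripts). Their median log2 change was -2.97, beside -0.13 for all transcripts, and their means summed to 10288 in post secretory nectaries and 144573 at stage 12. Much of that sum is carotenoid cleavage dioxygenase 1-2 (KC747730.1), which cuts carotenoids into volatile fragments, with 1005 ± 213 after secretion and 81281 ± 32369 at stage 12 (log2 change -6.34, adjusted p = 9.466e-05). Post secretory libraries reached at most 1252 and stage 12 libraries at least 43903. Phytoene synthase 2 (XM_016619890.1), the entry step of the pathway, had 714 ± 30 after secretion and 8311 ± 2957 at stage 12 (log2 change -3.54). Copies of these enzymes were listed at 0 after secretion: the cleavage dioxygenase XM_016643302.1 had 0 ± 0 after secretion and 225 ± 180 at stage 12, and the phytoene synthase JX101474.1 had 0 ± 1 after secretion and 135 ± 80 at stage 12.

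Falls were found at many steps, from geranylgeranyl pyrophosphate synthase XM_016586612.1 (197 ± 23 in post secretory nectaries, 1939 ± 942 at stage 12) to zeta-carotene desaturase XM_016658599.1 (296 ± 13, against 4229 ± 1883 at stage 12). Zeaxanthin epoxidase XM_016620556.1 fell to 1828 ± 159, against 15043 ± 8942 at stage 12. Violaxanthin de-epoxidase-like XM_016610647.1, named for the partner of that enzyme in the xanthophyll cycle, had 33 ± 3 after secretion and 3381 ± 1496 at stage 12. The 2 members that rose were lycopene epsilon cyclase HQ993098.1, which leads to lutein, the carotenoid of green tissue (84 ± 17 after secretion, 4 ± 1 at stage 12), and NCED3 JX101472.1, which cuts carotenoids toward abscisic acid (1645 ± 579, against 303 ± 54).

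Photosynthesis transcripts rose more than those of any other list of 10 or more members. Of 65 tested, 58 rose and 1 fell (90.8% called, beside 31.1% of all transcripts). Their median log2 change was 4.98, and their means summed to 85949 after secretion and 5063 at stage 12. Of the 65, 34 had a stage 12 mean of 20 or less. These were tested only through their post secretory means and could only be higher. All 12 transcripts of the Calvin cycle enzymes rose, as did 46 of 53 of the light reactions. Of 21 chlorophyll a/b binding proteins, the antenna of the photosystems, 19 rose, with log2 changes between 3.29 and 8.71. The chlorophyll a/b binding protein XM_016593229.1 had 4923 ± 300 in post secretory nectaries and 18 ± 6 at stage 12 (log2 change 8.02, adjusted p = 1.714e-05), with post secretory libraries at 4576 or more and stage 12 libraries at 26 or less. The antenna protein XM_016657680.1 had 3347 ± 363 after secretion and 7 ± 8 at stage 12. Chlorophyll a/b binding proteins XM_016632342.1, with 4507 ± 496 after secretion and 12 ± 6 at stage 12, and XM_016635074.1, with 2985 ± 217 after secretion and 10 ± 11 at stage 12, were among the 12 largest rises of called and separated transcripts with a mean of 200 or more, counted once per locus, and the antenna mRNA X52741.1 had 4285 ± 426 after secretion and 17 ± 10 at stage 12.

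The Rubisco small subunit XM_016585367.1, part of the carbon fixing enzyme, was present earlier and rose less, to 7687 ± 413, against 1486 ± 588 at stage 12 (log2 change 2.37, adjusted p = 0.00105). Plastocyanin XM_016614988.1, an electron carrier, had 1912 ± 356 after secretion and 346 ± 10 at stage 12. The summed means were 6909 at stage 6, 5875 at stage 9, 5063 at stage 12 and 85949 after secretion, so the rise appeared in the last group only. For scale, the same transcripts summed to 756554 in leaf, 167411 in sepal (a tissue for which the protocol has stem) and 58021 in ovary of N. plumbaginifolia. Whether green tissue next to the gland was dissected along with it was not tested.

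Early light-induced protein XM_016651565.1, a plastid protein of light stress, went against this direction, with 3 ± 1 in post secretory nectaries and 4045 ± 2664 at stage 12 (log2 change -9.98).

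**Figure D4:**
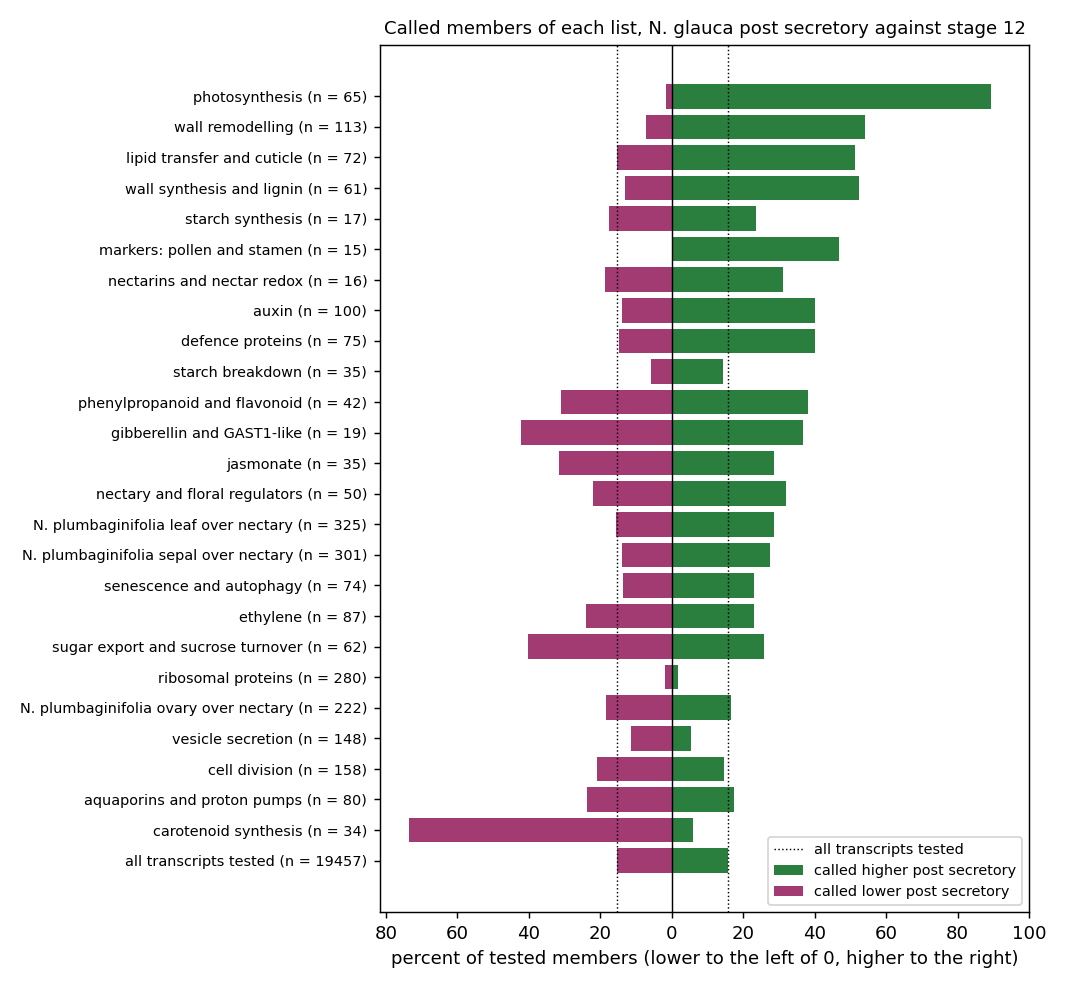
Bars give the percent of tested members of each gene list (rows, with the number tested) called higher (right of 0) or lower (left of 0) in post secretory nectaries than at stage 12, for lists with 10 or more tested members, and dotted lines mark the 15.8% and 15.3% of all transcripts. Photosynthesis extends farthest to the right, with 58 of 65 members, and carotenoid synthesis farthest to the left, with 25 of 34. Of the 65 photosynthesis members, 34 had a stage 12 mean of 20 or less and could only be higher.

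Water channels were exchanged between family members. Of 16 plasma membrane intrinsic proteins (PIP aquaporins, grouped after the values were seen), 10 rose and 5 fell, while the sum of their means was 50178 in post secretory nectaries and 54817 at stage 12. PIP2 1 (BK008505.1) had 382 ± 137 after secretion and 10957 ± 4896 at stage 12 (log2 change -4.84, adjusted p = 0.000267). It averaged 389 at stage 6 and 870 at stage 9, so its high level was limited to stage 12. PIP1 4 (BK008503.1) fell to 871 ± 137, against 12680 ± 312 at stage 12. In the other direction, aquaporin 1 (AJ001416.1) had 16066 ± 1133 in post secretory nectaries and 1582 ± 343 at stage 12 (log2 change 3.34), with no overlap, since its lowest possible post secretory value was 14757 and its highest possible stage 12 value was 1979. PIP2 7a (BK008514.1) rose to 4934 ± 938, against 220 ± 69 at stage 12. Aquaporins of the vacuole split as well. TIP-type RB7 XM_016626436.1 had 0 ± 0 after secretion and 180 ± 16 at stage 12, while TIP2-1-like XM_016607434.1 had 78 ± 24 after secretion and 1 ± 1 at stage 12. The whole list of 80 aquaporins and proton pumps had 14 higher and 19 lower. Of its 50 proton pump subunits, which energize membranes, 8 fell and 1 rose, a share of falls close to the 15.3% of all transcripts.

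Cell wall transcripts rose more often than they fell. Of 113 members of wall remodelling, 61 rose and 8 fell (median log2 change 1.29), and of 61 members of wall synthesis and lignin, 32 rose and 8 fell (median 1.13). The shares called were 61.1% and 65.6%, beside 31.1% of all transcripts. Summed means of wall remodelling were 63071 after secretion and 42029 at stage 12. Those of wall synthesis and lignin were lower after secretion, 52435, than at stage 12, 56918. Of 13 pectate lyases, which cut pectin, 11 rose and none fell. Pectate lyase 5 (XM_016581883.1) had 3794 ± 836 in post secretory nectaries and 7 ± 12 at stage 12 (log2 change 8.89, adjusted p = 0.000807). Its libraries lay at 2828 or more after secretion and at 22 or less at stage 12. Its copy XM_016629000.1 had 1519 ± 346 after secretion and 5 ± 6 at stage 12. Of 16 expansins, which loosen walls, 10 rose and 1 fell. Xyloglucan endotransglucosylases, which cut and rejoin wall polymers, moved both ways, with 6 of 20 higher and 5 lower; XM_016611419.1 had 2 ± 1 after secretion and 627 ± 11 at stage 12. The most abundant of them, XM_016623489.1, was not called, with 6910 ± 839 after secretion and 3274 ± 4448 at stage 12.

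Cellulose synthases are given by wall type. The 4 subunits of types A4, A7 and A8, which build secondary walls in Arabidopsis, all rose, with means summing to 1101 after secretion and 16 at stage 12. With so low a stage 12 sum, these 4 were tested only through their post secretory means and could only be higher. Subunit A4 (XM_016612517.1) had 192 ± 27 in post secretory nectaries and 0 ± 1 at stage 12. Of 8 subunits of types A1, A2, A3 and A6, which build primary walls, 2 rose and 1 fell. A cellulose synthase-like protein of type H1 (XM_016608017.1) fell to 65 ± 65, against 12219 ± 1933 at stage 12 (log2 change -7.53). The largest rise of all was a glycine-rich cell wall protein (XM_016633374.1), with 1737 ± 428 after secretion and 2 ± 4 at stage 12 (log2 change 9.18).

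Markers of other tissues moved with these rises. Of 8 vascular markers, 6 rose and 1 fell (87.5% called, beside 31.1% of all transcripts). The summed means of the list were 4928 in post secretory nectaries and 3158 at stage 12. Xylem cysteine proteinase 1-like XM_016607817.1, which degrades the contents of maturing xylem cells, had 639 ± 57 after secretion and 1 ± 1 at stage 12, and its copy XM_016650955.1 was listed at 0 ± 1 at stage 12. The 3 sieve element occlusion transcripts, which encode proteins of phloem sieve tubes, all rose. Their stage 12 means summed to 34, so they were tested only through their post secretory means and could only be higher. The same holds for both xylem cysteine proteinase transcripts. JX119093.1 (SEO1) had 255 ± 27 after secretion and 9 ± 5 at stage 12. The marker with the highest mean at stage 12, phloem protein 2-like A10 (XM_016628672.1), fell, with 991 ± 93 after secretion and 2565 ± 742 at stage 12. The part of vascular tissue in the wall results was not tested.

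Both AGL11-like transcripts, markers of ovules, rose (XM_016619520.1 had 446 ± 35 after secretion and 65 ± 51 at stage 12, and XM_016616449.1 had 165 ± 7 after secretion and 19 ± 25 at stage 12), and they summed to 611 after secretion and 84 at stage 12. Seed storage transcripts appeared with a spread as large as their means. The 2S seed storage protein XM_016637815.1 had 254 ± 338 in post secretory nectaries and 0 ± 1 at stage 12, and an 11S globulin (XM_016633691.1) had 219 ± 270 and 5 ± 5 at stage 12. Of 5 seed markers 4 rose and none of those 4 was separated. The fifth, a transcript that shares only its name with vicilin (XM_016656065.1), fell and had a stage 12 mean of 5742, nearly the whole sum of the list. The other 4 were thus tested only through their post secretory means and could only be higher. The list summed to 3177 after secretion and 5752 at stage 12. Of 15 transcripts named for pollen or stamens, 7 rose and none fell (46.7% called, beside 31.1% of all transcripts). They summed to 12797 after secretion and 7511 at stage 12. The pollen allergen-like XM_016654635.1 had 426 ± 226 after secretion and 4 ± 3 at stage 12 and the extensin-like XM_016580294.1 552 ± 64 after secretion and 46 ± 10 at stage 12. Both were under 50 at stage 12, so they were tested only through their post secretory means and could only be higher. The most abundant, XM_016582630.1, was not called, with 4701 ± 538 after secretion and 2637 ± 1867 at stage 12. No style or trichome marker was tested. Of 222 transcripts with a mean of 500 or more in the ovary of N. plumbaginifolia and at least 16-fold above its 4 nectary stages, 37 rose and 41 fell (35.1% called, beside 31.1% of all transcripts). For sets chosen by the same rule, 93 of 325 leaf transcripts rose and 51 fell, and 83 of 301 sepal transcripts rose and 42 fell. Among the ovary set, vacuolar cation exchanger 3-like XM_016650706.1 had 945 ± 155 after secretion and 13 ± 11 at stage 12, and among the sepal set, basic blue protein-like XM_016659792.1 had 176 ± 30 after secretion and 1 ± 2 at stage 12. The part of ovary, seed and pollen in these results was not tested.

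Lipid and defence proteins of the cell surface rose more often than they fell, 37 against 11 of 72 and 30 against 11 of 75. The shares called were 66.7% and 54.7%, beside 31.1% of all transcripts. Summed means of the lipid list were 98965 after secretion and 103615 at stage 12. Those of the defence list were 42129 after secretion and 34970 at stage 12. Non-specific lipid-transfer protein 1 (XM_016599458.1), a small secreted carrier linked to cuticles, had 39327 ± 8292 in post secretory nectaries and 1710 ± 783 at stage 12 (log2 change 4.52, adjusted p = 0.000282). Post secretory libraries lay at 29751 or more and stage 12 libraries at 2615 or less. Another copy (XM_016619805.1) had 1819 ± 572 after secretion and 10 ± 7 at stage 12, and the DIR1-like transcript XM_016634952.1, named for a carrier of systemic immunity in Arabidopsis, had 181 ± 38 after secretion and 1 ± 2 at stage 12. A type 2 lipid-transfer protein (XM_016646764.1) fell to 8921 ± 2494, against 49660 ± 21303 at stage 12. Among defence proteins the PR-1-like transcript XM_016613761.1 had 152 ± 52 after secretion and 0 ± 1 at stage 12, and an osmotin-like transcript (XM_016650867.1) fell to 310 ± 102, against 5581 ± 1231. A PR-5-like transcript (XM_016659708.1) had 464 ± 265 after secretion and 16 ± 17 at stage 12. Defensin 1 (JQ654634.1), the most abundant defence transcript, was not called, with 8161 ± 1552 after secretion and 5253 ± 1496 at stage 12. The ABC transporter PDR1-like XM_016607264.1, of a family that exports terpenoids in tobacco, had 53 ± 11 in post secretory nectaries and 22724 ± 12601 at stage 12 (log2 change -8.72).

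Phenylpropanoid and flavonoid enzymes changed in both directions, 16 higher and 13 lower of 42 (69.0% called, beside 31.1% of all transcripts). All 3 phenylalanine ammonia-lyase transcripts, the entry to the pathway, fell, and X78269.1 had 1060 ± 44 after secretion and 5758 ± 3015 at stage 12. Cinnamate 4-hydroxylase XM_016638060.1, the next step, rose to 1070 ± 180, against 148 ± 151 at stage 12 (log2 change 2.85, adjusted p = 0.013). The largest changes of the list were in secoisolariciresinol dehydrogenase-like XM_016584549.1, with 27 ± 2 after secretion and 3808 ± 2022 at stage 12, and anthocyanidin glucosyltransferase-like XM_016608714.1, with 496 ± 136 after secretion and 22 ± 19 at stage 12. Its most abundant member, hydroxyisoflavanone dehydratase-like XM_016618033.1, had 587 ± 163 after secretion and 7289 ± 3213 at stage 12. Of 61 members of the lignin and cellulose list, laccase 11 (XM_016610823.1), a polymerizing enzyme of lignin, rose to 249 ± 70, against 11 ± 1.

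Auxin transcripts rose more often than they fell, with 40 higher and 14 lower of 100 (54.0% called, beside 31.1% of all transcripts). The auxin efflux carrier 1c (XM_016658576.1), a PIN-type exporter, had 1857 ± 233 in post secretory nectaries and 47 ± 11 at stage 12 (log2 change 5.28, adjusted p = 3.096e-05). Auxin response factor 19-like XM_016640602.1 had 1612 ± 241 after secretion and 50 ± 34 at stage 12. The most abundant auxin transcript, the repressor IAA8-like XM_016610251.1, was not called, with 10816 ± 161 after secretion and 7709 ± 1478 at stage 12. Small auxin-up RNAs went both ways: SAUR32-like XM_016593511.1 rose to 264 ± 166, against 2 ± 1 at stage 12, and auxin-induced 15A-like XM_016621054.1 fell to 9 ± 10, against 892 ± 152. Indole-3-acetate O-methyltransferase 1-like XM_016639758.1, which methylates auxin, had 803 ± 61 after secretion and 1 ± 2 at stage 12 (log2 change 8.65).

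Jasmonate genes moved in both directions, 10 higher and 11 lower of 35. Allene oxide synthase XM_016660658.1 had 1097 ± 64 in post secretory nectaries and 132 ± 50 at stage 12 (log2 change 3.05, adjusted p = 0.000361), and allene oxide cyclase XM_016586618.1 had 3161 ± 277 and 763 ± 246 at stage 12. Another allene oxide synthase (XM_016585976.1) was called lower, with 89 ± 26 after secretion and 198 ± 79 at stage 12, and it was not separated. Lipoxygenase 6 (XM_016656457.1) rose, with 1045 ± 98 after secretion and 151 ± 82 at stage 12, and the most abundant lipoxygenase, XM_016590970.1, was not called, with 3126 ± 1202 after secretion and 1661 ± 316 at stage 12. Of 14 TIFY repressors of jasmonate responses, 6 fell and 2 rose, beside 15.3% lower and 15.8% higher of all transcripts.

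Ethylene genes were balanced, 20 higher and 21 lower of 87 (47.1% called, beside 31.1% of all transcripts). The ACC synthase XM_016591498.1, which makes the ethylene precursor, had 4 ± 2 after secretion and 488 ± 110 at stage 12 (log2 change -6.61, adjusted p = 0.000101). The TINY-like transcription factor XM_016637839.1 rose, with 256 ± 47 after secretion and 11 ± 4 at stage 12. ACC oxidase XM_016618795.1 was not called, with 11789 ± 14236 in post secretory nectaries and 4750 ± 398 at stage 12. Of 19 gibberellin genes, 7 rose and 8 fell (78.9% called). GAST1-like XM_016589707.1, a gene induced by gibberellin in tomato, had 2746 ± 703 after secretion and 18 ± 1 at stage 12 (log2 change 7.18). Gibberellin 3-beta-dioxygenase XM_016648087.1, which makes active gibberellin, had 128 ± 4 after secretion and 1 ± 2 at stage 12. Snakin-1-like XM_016618890.1, an antimicrobial peptide of the same family as GAST1, fell, with 2896 ± 257 after secretion and 12912 ± 1146 at stage 12. Of 5 gibberellin receptors 3 fell and none rose.

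Of 74 transcripts of senescence and autophagy, 17 rose and 10 fell (36.5% called, near the 31.1% of all transcripts). The 17 rises were all among the 40 transcripts of senescence and proteolysis, of which 5 fell. The cysteine protease EU429306.1 had 653 ± 319 in post secretory nectaries and 1 ± 2 at stage 12 (log2 change 8.35, adjusted p = 0.000406). NAC29-like XM_016636746.1, named for a factor that drives leaf senescence in Arabidopsis, fell to 33 ± 21, against 274 ± 18 at stage 12. The most abundant protease, NM_001347660.1, was not called, with 7052 ± 1710 after secretion and 5349 ± 953 at stage 12. Of 34 autophagy transcripts 5 fell (14.7%, near the 15.3% of all transcripts) and none rose, and the difference between the sets was not tested. The median log2 change of both sets together was -0.07, and it turned positive when the groups were rescaled to the same median ratio.

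Ribosomal protein transcripts were the list with the smallest share called. Of 280 cytosolic ribosomal proteins, 5 rose and 5 fell (3.57% called, against 31.1% of all transcripts), a split that became 11 higher and 2 lower when the groups were rescaled by their median ratio. The most abundant, P0 (XM_016607339.1), had 3376 ± 303 after secretion and 3588 ± 324 at stage 12. The largest changes were rises of a P0-like copy (XM_016601382.1), with 174 ± 93 after secretion and 20 ± 11 at stage 12, and L7-2-like XM_016610720.1, with 1329 ± 278 after secretion and 465 ± 131 at stage 12. Histones, which are made when DNA is copied, fell in 16 and rose in 1 of 54 (31.5% called, near the 31.1% of all transcripts). On rescaling 13 histones fell and 3 rose. Of 104 transcripts of the cell cycle and replication, 22 rose and 17 fell (37.5% called). The whole division list had 23 higher and 33 lower of 158 (35.4% called), both shares near the 31.1% of all transcripts, and its split became 27 and 25 on rescaling. Cyclin D3-1-like XM_016660564.1, which drives entry into division, fell to 94 ± 11, against 853 ± 74 at stage 12 (log2 change -3.17). The kinesin NACK1 (XM_016593879.1), needed to divide the cell in tobacco, rose, with 151 ± 10 after secretion and 10 ± 3 at stage 12, and so did a cyclin-dependent kinase inhibitor (XM_016641474.1), with 105 ± 9 after secretion and 7 ± 5 at stage 12. Histone H1 L29456.1 was not called, with 5013 ± 648 after secretion and 9197 ± 2242 at stage 12. Of 148 members of vesicle secretion, 8 rose and 17 fell (16.9% called), and 9 and 11 on rescaling. Its largest changes were in an epsin-like adaptor (XM_016605388.1), called but not separated, with 4 ± 1 after secretion and 85 ± 101 at stage 12, and exocyst EXO84A-like XM_016645778.1, with 56 ± 10 after secretion and 9 ± 7 at stage 12. Its most abundant member, Sec61 alpha (XM_016632087.1), was not called, with 2781 ± 322 after secretion and 4236 ± 464 at stage 12.

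Further large falls lay outside the lists. The cation/proton antiporter 18-like XM_016652449.1 had 2 ± 1 after secretion and 2511 ± 647 at stage 12, and it averaged 10720 at stage 9. The aldehyde dehydrogenase XM_016604265.1, related to an enzyme of ferulic acid synthesis, had 35 ± 3 after secretion and 17250 ± 11290 at stage 12. Miraculin-like XM_016583741.1, of a protease inhibitor family, had 42 ± 53 after secretion and 13471 ± 1211 at stage 12. All 3 were separated. Of the glycosyltransferases among the largest falls, UGT83A1-like XM_016640100.1 had 1 ± 1 after secretion and 1015 ± 834 at stage 12, and zeatin O-xylosyltransferase-like XM_016601173.1, named for an enzyme of cytokinin storage, had 19 ± 3 after secretion and 5836 ± 681 at stage 12. Early nodulin-93-like XM_016652609.1 had 1 ± 1 after secretion and 479 ± 174 at stage 12. The remaining large rise was a dioxygenase annotated as deacetoxyvindoline 4-hydroxylase-like (XM_016596562.1), with 1498 ± 331 after secretion and 4 ± 4 at stage 12.

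Stages 6 and 9 show when the changes arose. Of the 3065 transcripts called higher, 1919 (62.6%) stood at least 2-fold above all earlier stages after secretion, and 1146 (37.4%) had already been within 2-fold of that level, or above it, at stage 6 or 9. Of the 2986 called lower, 1110 (37.2%) were at least 2-fold below all earlier stages after secretion. For 1776 (59.5%) the stage 6 level was within 2-fold of the post secretory level or below it. The stage 12 level of 756 (25.3%) was at least 2-fold above both stages 6 and 9. These counts describe means and were not tested.

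Summed over Arabidopsis loci, so that close copies are pooled, 3042 of 10845 loci (28%) were called, 1631 (15%) higher and 1411 (13%) lower. The SD of a sum was set to its upper limit. Called transcripts of opposite direction fell within 152 loci, and 93 of those were not called as a sum. A further 28 called loci had no called transcript. The largest of these was LSD ONE LIKE 1 (AT1G32540), with 56 ± 29 in post secretory nectaries and 1 ± 2 at stage 12 (limma adjusted p = 0.0062). Protochlorophyllide oxidoreductase B (AT4G27440), a light-driven enzyme of chlorophyll synthesis, had 69 ± 25 after secretion and 3 ± 4 at stage 12 (adjusted p = 0.00664). HSP70B (AT1G16030), a stress chaperone with 1 transcript, had 165 ± 263 after secretion and 2420 ± 3456 at stage 12, an SD above the mean in both groups, and stood at the threshold (adjusted p = 0.05).

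The medians of photosynthesis and carotenoid synthesis had the same sign in the other profiles, and their sizes differed. The photosynthesis median was 4.98 in N. glauca, against 2.10 (N. benthamiana), 1.72 (N. rustica), 1.16 (N. plumbaginifolia) and 2.15 (joint), over the members with a mean of 50 or more in each. For carotenoid synthesis it was -2.97 in N. glauca, against -2.76 (N. benthamiana), -4.31 (N. rustica), -1.73 (N. plumbaginifolia) and -3.64 (joint). The starch synthesis median was 0.84 in N. glauca, against -0.64 (N. benthamiana), -0.58 (N. rustica), -0.08 (N. plumbaginifolia) and -0.49 (joint), a difference in sign that was not tested. A limma test of the N. glauca change against the 4 other profiles passed an adjusted p of 0.05 for 613 transcripts (3.15%), with the N. glauca change higher in 342 (1.76%) and lower in 271 (1.39%), and 4081 had an unadjusted p under 0.05. N. glauca entered this test as a single value per transcript, assumed to vary like the others, and the spread between its libraries was not used. The test also cannot be read for genes that change strongly in the other species. Its variance was moderated along a trend over the mean change, which raised the SE to as much as 75.3, and none of the 2172 transcripts with a log2 change of 2 or more in another profile passed. With no trend, an alternative added after the data were seen, 600 passed, 10 of those 2172 among them. Of the 613, 268 had a mean of 50 or more in 1 to 3 other profiles and 40 in every one. The rest were below it in all of them, so their change there is near 0 for want of reads. Among the 5927 transcripts measured in every other profile, tested alone, none passed with the trend (767 at an unadjusted p under 0.05) or without it (765). With N. rustica left out the count was 0, with N. plumbaginifolia left out it was also 0, and leaving out the joint profile gave 303. Whether the larger photosynthesis median of N. glauca differs from the other species was therefore not settled by this test. The photosynthesis members were also drawn from the 65 tested in N. glauca. Of those, 34 had an N. glauca stage 12 mean of 20 or less. They passed the minimum mean of 50 only through the N. glauca post secretory group, a choice that favours a large N. glauca median. Any members between 20 and 50 at stage 12 would add to these and were not counted.

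**Figure D5:**
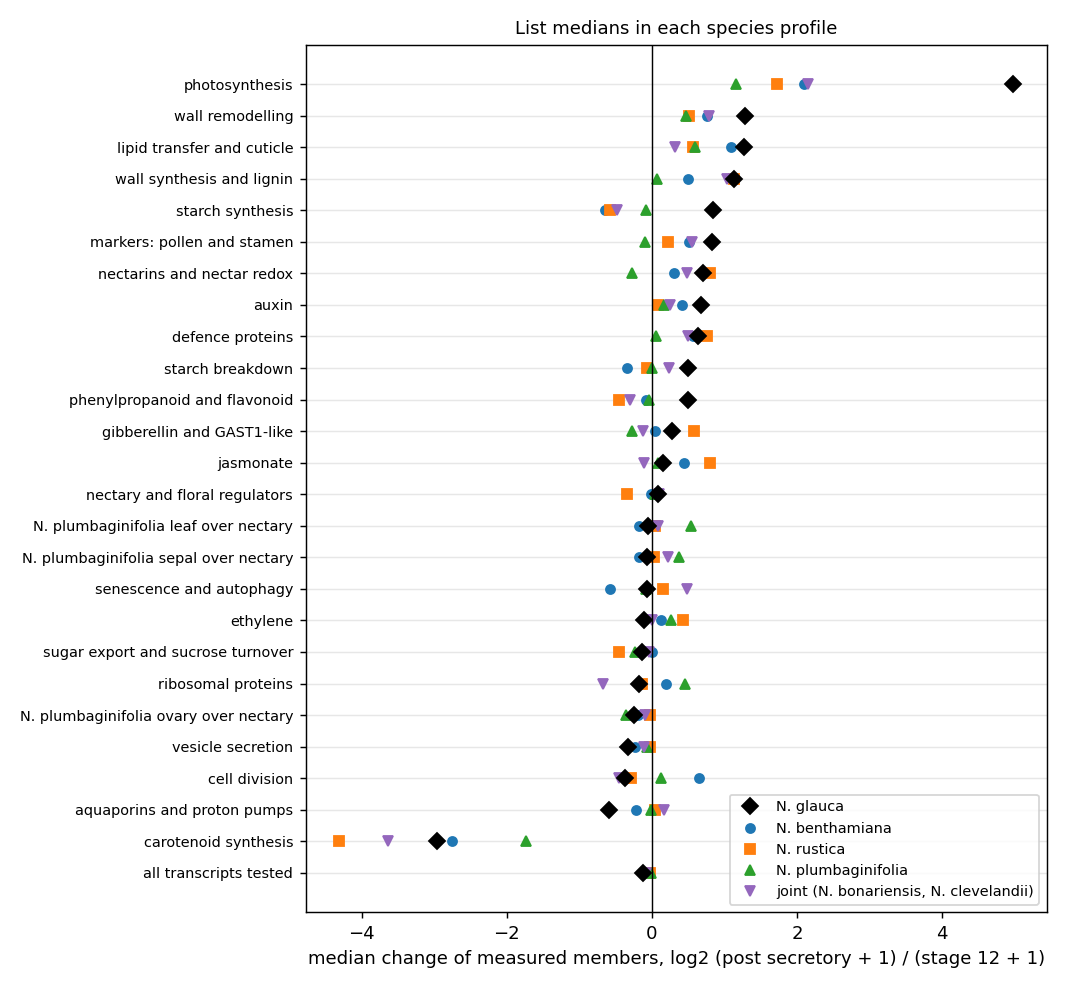
Each symbol is the median log2 change of post secretory over stage 12 (x axis) of a gene list (rows, as in the bar chart of called members) in N. glauca (black diamonds), N. benthamiana, N. rustica, N. plumbaginifolia or the joint profile. For photosynthesis the N. glauca median of 4.98 lies right of the other 4 (1.16 to 2.15), and for carotenoid synthesis all 5 medians lie between -4.31 and -1.73.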

How the data were processed

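RNA of hand-dissected nectaries was sequenced by the authors, and the deposited table gives, for each group, a mean and an SD over 3 libraries. The values the authors deposited are normalized counts rounded to whole numbers, treated here as a score because they are not raw counts. The authors used DESeq, per the submitters' processing notes, which give no version. The column of other values used, a yes or no call for stage 12 against post secretory, is the authors' deposited call, with no threshold stated in the labels or the file header. The labels' notes name no aligner or alignment settings. Depth per library is unknown, so no counting interval is given.

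Computed here: log2((post secretory mean + 1)/(stage 12 mean + 1)) for transcripts with a mean of 50 or more in either group. The log2 variance of each group came from its SD by the delta method (SD not below 1), and the mean of both variances, with 4 degrees of freedom, was moderated with limma 3.58.1 (squeezeVar, trend on level) in R 4.3.3. P-values were adjusted by Benjamini-Hochberg over all 19457 transcripts. The test was tested on simulated data first. The change in N. glauca was set against 4 other profiles with limma, with a prior variance trended on the mean change. In that fit N. glauca was a lone value, assumed to vary like the others. The profiles deposited for N. bonariensis and N. clevelandii were identical in the table and were counted once.

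Gene lists were matched on the descriptions in the table. Members and lists were chosen with earlier results of these data known, and patterns that caught unrelated names (RNA-directed polymerases, calcyclin, phloem proteins in the seed list) were trimmed after values were seen, so list counts carry no test. The transcripts named were the 12 largest rises and 12 largest falls among called and separated transcripts with a mean of at least 200 and a description (1 per locus), the 2 largest called changes and the highest level per list, known nectary genes, and 3 loci; 93 of the 134 transcripts named come from this rule, and the other 41, with the gene families inside lists, were chosen after their values were seen. Alternatives changed the pseudocount, filter, scaling, variance and moderation.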

Additional observations from a re-analysis of the deposited data

Results flagged for a closer look

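The N. glauca change differed from that of the other profiles in 613 transcripts, by limma's test of the difference, and 13 of the transcripts named were among them. The test favours transcripts that are low or listed at 0 elsewhere, since a change near 0 there has little spread, and none of the 5927 transcripts measured in every other profile passed. For 5 of the flagged transcripts the other profiles list a mean of 0 in both groups, so the difference is the N. glauca change itself. They were glycine-rich cell wall protein XM_016633374.1 (difference 9.18 on the log2 scale), 2S seed storage protein XM_016637815.1 (7.99), 11S globulin XM_016633691.1 (5.20), anthocyanidin glucosyltransferase-like XM_016608714.1 (4.43) and early nodulin-93-like XM_016652609.1 (-7.91). The other profiles were low for early light-induced protein XM_016651565.1 (difference -10.32, highest other mean 55), SWEET1-like XM_016641144.1 (6.62, highest other mean 87), nectarin-1-like XM_016601497.1 (2.96, highest other mean 38) and the dioxygenase XM_016596562.1 (8.01, highest other mean 17). Higher means were reached elsewhere by the 4 others. Lipid-transfer protein XM_016619805.1 differed by 7.16 (highest other mean 2336) and phenylalanine ammonia-lyase X78269.1 by -2.65 (highest other mean 1774). The epsin-like XM_016605388.1, not separated in N. glauca, differed by -4.18 (highest other mean 902), and EXO84A-like XM_016645778.1 by 2.62 (highest other mean 163).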

How the results depend on the processing

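No paired analysis was possible because the table gives means and SDs and no values per library, and leaving out each replicate could not be run for the same reason. A minimum mean of 200 gave 3994 called and 3916 separated transcripts, with fewer transcripts tested, and the adjusted p alone, with no 2-fold minimum, called 9997. The other alternatives for called transcripts, separated transcripts and loci stayed within 1.5 times of the reported counts. Rescaling by the median ratio moved the median change by 0.143 and gave 3429 higher and 2395 lower. The count of transcripts that differ from the other profiles was the least stable. It was 1038 with a pseudocount of 10, 1900 with the identical copies kept as separate profiles, 0 when N. rustica was left out, 0 when N. plumbaginifolia was, 303 when the joint profile was, and 0 among transcripts measured in every other profile, with or without a trend in the prior variance. With no trend it was 600 over all tested transcripts. The cause was not tested. For the 134 named transcripts, 1045 values kept their direction and side of the threshold. On rescaling XM_016657282.1 and XM_016590970.1 were called, and ribosomal P0 XM_016607339.1, not called either way, changed sign to 0.048. D64052.1 was called with no trend in the prior variance. With the larger of both variances XM_016585976.1, XM_016638060.1 and AGL11-like XM_016616449.1 were not called. The adjusted p alone, the count of called and separated transcripts, the fits of that difference with no trend, and the restriction to transcripts measured in every other profile were chosen after seeing the data. Depth per library is unknown, so the counting error behind a mean near 0 could not be given.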

Other observations

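Genes of carbon and nitrogen metabolism outside the lists, chosen after their values were seen, were among the most abundant transcripts that fell. Phosphoenolpyruvate carboxykinase XM_016579669.1, which returns organic acids toward sugar, had 4242 ± 22 in post secretory nectaries and 117011 ± 71612 at stage 12 (log2 change -4.79), and averaged 128865 at stage 6 and 192020 at stage 9. Nitrate reductase XM_016606716.1 had 366 ± 80 after secretion and 10667 ± 533 at stage 12 (log2 change -4.86, limma adjusted p = 2.742e-05). Glutamate synthase XM_016649471.1, which builds glutamate, had 1912 ± 152 after secretion and 19443 ± 10380 at stage 12. The asparaginase XM_016600714.1, which frees ammonium from asparagine, had 823 ± 163 after secretion and 11937 ± 4506 at stage 12.

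Abundant transcripts that rose included catalase CAT-1 (U07627.1), which destroys hydrogen peroxide, with 13808 ± 455 in post secretory nectaries and 715 ± 1009 at stage 12 (log2 change 4.27). Metallothioneins, small metal-binding proteins, rose in type 2 (XM_016584036.1, 16697 ± 2594 after secretion and 723 ± 722 at stage 12) and type 3 (XM_016654033.1, 5348 ± 1571 after secretion and 119 ± 31 at stage 12). Vacuolar processing enzyme AB075948.1, a protease of the vacuole, had 4976 ± 1411 after secretion and 576 ± 393 at stage 12.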
